A study of Homo sapiens with 15 samples.

Results

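The 10 genes described here, GAS5, SNHG1, SNHG5, SNHG6, SNHG8, SNHG12, SNHG15, SNHG16, ZFAS1 and EPB41L4A-AS1, are long noncoding RNAs whose introns carry small nucleolar RNAs (snoRNAs). They were chosen by symbol, as snoRNA hosts whose spliced RNA is known to be lost through decay coupled to translation, and they are 10 of the 60670 genes in the count table. Each symbol matched a single Ensembl identifier, and all 10 passed the filter on low counts that left 18563 genes for testing. RNA was sequenced from HT-1080, a human fibrosarcoma line, in 5 groups of 3 libraries that the labels call biological replicates, and all cells were grown in tet-free serum at 5% oxygen. The groups were cycling cells with the vehicle DMSO for 6 h, and senescent cells with DMSO for 6 h, 1 uM GNF-7 for 6 h, DMSO for 24 h or 1 uM GNF-7 for 24 h. Senescence was brought on over 6 days by a dominant negative form of TRF2, a protein that caps telomeres, so all 4 senescent groups carry that mutant and the damage it does to chromosome ends. Cycling cells were collected at 6 h only, and no cycling cells received GNF-7 in the groups used here. GNF-7 is a tyrosine kinase inhibitor that the study's title links to activation of GCN2, a kinase that phosphorylates the translation initiation factor eIF2 and so slows initiation while favouring translation of ATF4.

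snoRNAs guide chemical modification of ribosomal RNA: those of the C/D box class direct methylation and those of the H/ACA box class direct pseudouridylation. In a host gene the introns yield the snoRNAs, and the exons are spliced into an RNA with only short reading frames. Ribosomes that enter such an RNA reach a stop codon upstream of exon junctions, which is the classical setting for nonsense-mediated decay (NMD), and inhibitors of translation are known to let several of these RNAs build up. Many hosts also have 5' terminal oligopyrimidine (TOP) starts, runs of C and T at the transcription start that are shared with the genes of ribosomal proteins and tie translation to growth signals. GAS5 was first found as a transcript that accumulates in growth-arrested cells. A level in these libraries is set by synthesis and decay together, and they cannot be told apart here, nor can fewer cells making an RNA and less of it per cell.

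The sequence windows below show host starts, because a pyrimidine run at the start is the feature by which these genes are grouped with ribosomal protein genes. Of the 10 hosts, 8 are in the RefSeq promoter table (GRCh38.p14, 35116 promoters). Each window has 30 bases before the annotated start and 30 from it onward, 5' to 3' on the strand of the gene, with the longest run of C and T within 20 bases of the start in capitals.
SNHG12 (chr1:28581844-28581903, minus strand): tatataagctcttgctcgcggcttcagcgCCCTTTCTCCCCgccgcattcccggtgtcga
ZFAS1 (chr20:49278612-49278671, plus strand): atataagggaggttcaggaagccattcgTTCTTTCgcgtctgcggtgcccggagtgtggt
SNHG5 (chr6:85678704-85678763, minus strand): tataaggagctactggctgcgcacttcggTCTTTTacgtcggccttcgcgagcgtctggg
SNHG8 (chr4:118278732-118278791, plus strand): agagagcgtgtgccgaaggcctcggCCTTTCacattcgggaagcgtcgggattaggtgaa
SNHG16 (chr17:76557734-76557793, plus strand): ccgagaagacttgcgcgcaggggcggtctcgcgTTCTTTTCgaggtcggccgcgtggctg
The run of SNHG12 was the longest, at 12 bases, with 11 pyrimidines from the annotated start onward. ZFAS1 and SNHG5 each had 5 pyrimidines from the start onward. A stretch of at least 5 was therefore present at 3 of 8 host starts, against 5.17% of all promoters in the table. The longest run reached 7 bases or more in 4 of 8 hosts and in 26.1% of all promoters, with medians of 6.5 and 5 bases. In SNHG16 the run began at base 4 counted from the annotated start, and in SNHG8 it lay mostly before it. Neither had a stretch of 5 from the start onward. The RefSeq start of GAS5 lies upstream of the GENCODE gene bounds, so its window is not shown. GAS5 is still counted in the 8, with 0 pyrimidines from that start onward. Of the 88 GENCODE transcripts of the 10 genes not listed as retaining an intron, 16 began with at least 5 pyrimidines. These included 1 of 10 for GAS5, 3 of 7 for SNHG16 and 2 of 4 for SNHG6. SNHG15 and EPB41L4A-AS1 had none. Some of the 16 share a start site, as in ZFAS1 and SNHG6, and the share over all transcripts was not taken. A TATAA or TATAT motif on the gene's strand between 40 and 16 bases before the start was present in 4 of 8 hosts (SNHG12, SNHG5, SNHG8 and ZFAS1) and in 5.05% of all promoters, and this motif was looked for after the sequences had been seen. The ATF4 and C/EBP composite element TGATGNAAN, searched on both strands of the 300-base promoters, had no match in the 8 hosts and a match in 3.61% of all promoters.

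The reading frame below shows what a ribosome would meet first on a spliced RNA of ZFAS1, a host that rose with GNF-7. The start and stop codons are in capitals (GENCODE release 29 transcript).
ZFAS1-201, bases 122 to 199: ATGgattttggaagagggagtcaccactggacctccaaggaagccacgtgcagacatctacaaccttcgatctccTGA
This frame has 25 codons and ends 89 bases before the last exon junction of a 504-base RNA with 4 exons. The longest frame of the same RNA has 51 codons and ends past that junction. Among the 136 annotated transcripts of the 10 genes, 48 are listed as retaining an intron. In 79 of the 88 others (89.8%) the frame of the first ATG ended at least 50 bases before the last junction, the distance at which NMD is usually expected, and the same held for 71.5% of 25213 spliced noncoding transcripts. The median first frame of these 88 transcripts had 33 codons, and the longest frame in any of the 88 had 120 codons. Over the 10 transcripts of ZFAS1 the first frame had from 13 to 117 codons. It ended at least 50 bases before the last junction in 9 of them.

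Library totals ranged from 25991007 to 32323393 counts. Levels are given as CPM, the counts of a gene scaled to a common library size. TERF2, the gene of TRF2, was at 58.2 ± 3.65 CPM in cycling and 287 ± 8.17 CPM in senescent DMSO cells at 6 h (SD, n = 3), which is the direction the labels call for if the mutant's transcript is counted with the gene. It was lower after GNF-7, at 222 ± 8.60 CPM at 6 h and 132 ± 5.38 CPM against 220 ± 7.26 CPM at 24 h. ATF4, at 182 ± 7.89 CPM with DMSO for 6 h, rose to 433 ± 5.83 CPM with GNF-7 (log2 fold change 1.25 ± 0.0357 SE, adjusted p = 1.65e-38) and at 24 h it went from 192 ± 3.84 to 611 ± 10.7 CPM (1.67 ± 0.0358, adjusted p = 1.65e-45). In cycling cells ATF4 was at 326 ± 0.848 CPM, so it was lower in senescent DMSO cells at 6 h (-0.84 ± 0.0357, adjusted p = 2.07e-30). EIF2AK4, the gene of GCN2, stood between 98.4 and 151 CPM in all 15 libraries. It was lower in senescence (-0.27 ± 0.0424, adjusted p = 1.34e-07) and with GNF-7 at 24 h (-0.15 ± 0.0432, adjusted p = 0.00277). With GNF-7 at 6 h it did not pass the test (-0.03, adjusted p = 0.657). VIM (3346 to 4499 CPM), FN1 and CAV1, which mark mesenchymal cells, were present in every library, though with GNF-7 at 24 h FN1 fell from 1885 ± 90.5 to 860 ± 27.2 CPM and CAV1 from 521 ± 25.5 to 135 ± 2.73 CPM, and the fourth marker fixed for the line, S100A4, was low at 0.162 to 3.10 CPM. Markers of epithelial cells and leukocytes, EPCAM, CDH1 and PTPRC, reached at most 7 counts, and the endothelial marker PECAM1 at most 32. The share of counts in mitochondrial genes moved with the groups: it was 4.32% ± 0.637 in cycling cells, 11.7% ± 0.638 and 16.9% ± 1.80 in senescent DMSO cells at 6 h and 24 h, and 14.1% ± 1.08 and 23.3% ± 0.767 after GNF-7 at those times. Scaling without the mitochondrial genes changed 2 of the host calls below, that of SNHG12 in senescence and that of SNHG5 between the response times, and the part of this share in the results was otherwise not tested.

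**Figure D1:**
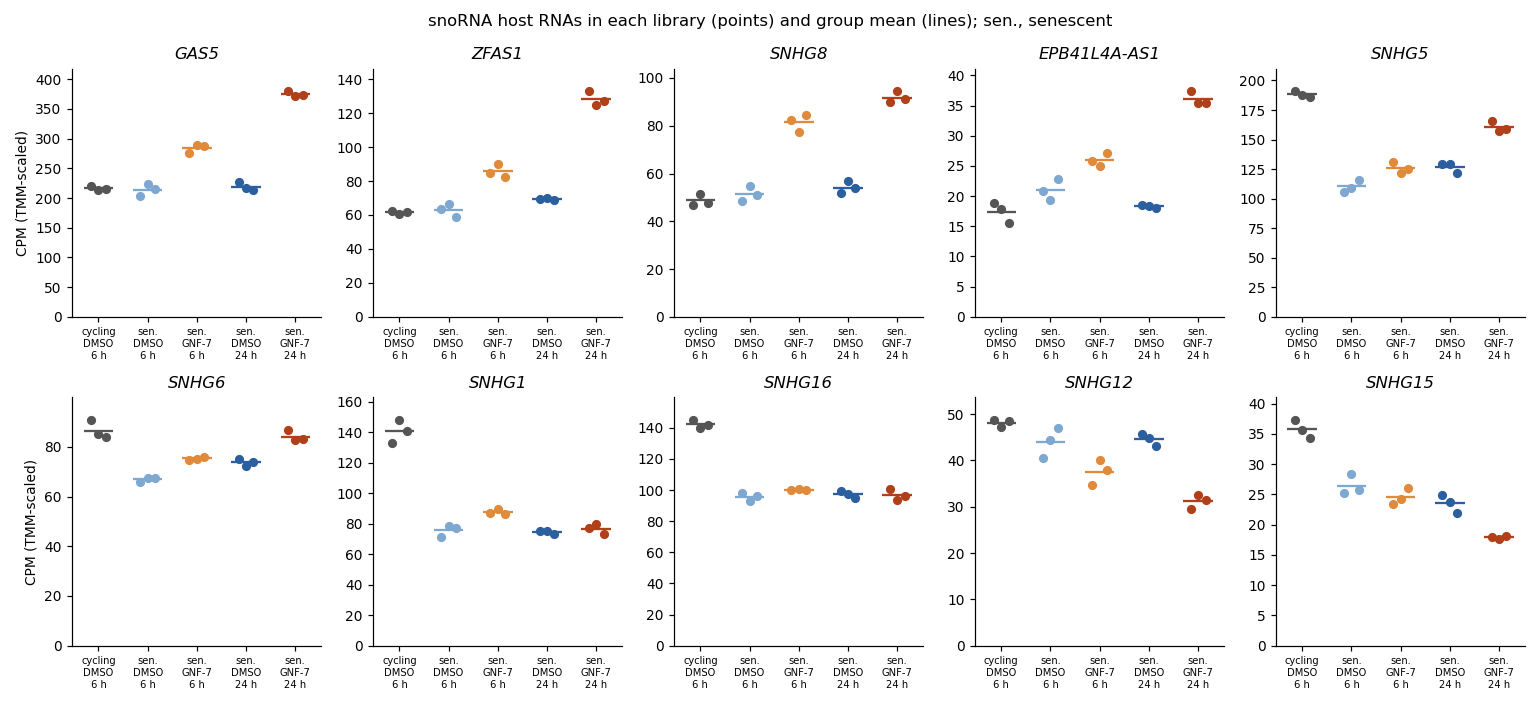
Level of each host RNA in CPM (counts on library sizes scaled by TMM, vertical axis from 0) in the 15 libraries, by group (horizontal axis); points are libraries and lines are means of 3. GAS5, ZFAS1, SNHG8 and EPB41L4A-AS1 in the top row are highest in the GNF-7 libraries, while SNHG1, SNHG16, SNHG12 and SNHG15 in the bottom row are highest in cycling cells.

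In senescent cells, before any GNF-7, most of these host RNAs were lower than in cycling cells. Of the 10 hosts 6 fell, SNHG1 the most, at 0.539 of its cycling level, and EPB41L4A-AS1 alone rose, while GAS5, SNHG8 and ZFAS1 did not pass the test. Senescence moved a large part of all genes, with 35.6% of those tested called higher and 34.4% called lower, and in 71.5% the libraries of the 2 groups did not overlap, against 7 of the 10 hosts. The median log2 fold change was -0.25 over the hosts and 0.06 over all genes tested. The summed level of the 10 hosts went from 986 ± 8.95 CPM in cycling cells to 768 ± 21.6 CPM in senescent cells.

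Among the C/D box hosts, SNHG1, which carries SNORD22 and SNORD25 to SNORD31 and was among the first hosts found to have no protein product, was at 133, 148 and 141 CPM in the cycling libraries and at 71.5, 78.7 and 77.2 CPM in the senescent DMSO libraries at 6 h. Every senescent library was far below every cycling one (log2 fold change -0.89 ± 0.0452 SE, adjusted p = 1.52e-26). SNHG5, the host of the SNORD50 pair, was at 191, 188 and 186 CPM in cycling and 106, 109 and 116 CPM in senescent libraries. Its groups lay equally clear of each other (-0.77 ± 0.0406, adjusted p = 1.13e-25). SNHG16, the host of the SNORD1 family, had 145, 140 and 142 CPM against 98.1, 92.8 and 95.9 CPM, and again the groups did not touch (-0.57 ± 0.0409, adjusted p = 1.22e-19). SNHG6, the host of SNORD87, fell less, from 90.8, 85.0 and 83.8 CPM to 65.7, 67.4 and 67.6 CPM (-0.37 ± 0.0447, adjusted p = 6.05e-11), with no overlap.

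GAS5, which carries a series of C/D box snoRNAs in its introns, was at 220, 213 and 216 CPM in cycling and 203, 223 and 215 CPM in senescent cells, so its groups overlapped fully. Its log2 fold change was -0.02 with a 95% interval of -0.09 to 0.05. The sign turned with the scaling, to 0.11 on total counts (adjusted p = 0.00784) and 0.13 with only genes of at least 5 CPM (adjusted p = 0.00088), and to 0.012 without the first senescent DMSO library at 6 h. ZFAS1, the host of the SNORD12 family, also overlapped, at 62.6, 60.6 and 61.9 CPM and 63.6, 66.2 and 58.8 CPM (0.03, 95% interval -0.06 to 0.12). Those alternatives gave 0.16 and 0.18 for ZFAS1, both called, and it was at -0.014 without the second senescent DMSO library at 6 h.

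Of the hosts with H/ACA box snoRNAs, SNHG15, which carries SNORA9, fell from 37.3, 35.7 and 34.4 CPM to 25.3, 28.3 and 25.8 CPM (-0.44 ± 0.0673, adjusted p = 5.68e-08). Its lowest cycling library stood above its highest senescent one. SNHG8, which carries SNORA24, had 47.0, 51.5 and 47.6 CPM against 48.6, 54.8 and 51.0 CPM, overlapping values that did not pass the test (0.08, 95% interval -0.02 to 0.18), though it was called higher on total counts, with the 5 CPM filter and in a fit of these 2 groups alone (0.21, 0.23 and 0.14). EPB41L4A-AS1, the host of SNORA13, rose from 18.9, 17.8 and 15.5 CPM to 20.8, 19.4 and 22.8 CPM (0.27 ± 0.0762, adjusted p = 0.00136), and its groups were close but did not overlap. SNHG12, which holds snoRNAs of both classes, was at 48.7, 47.3 and 48.5 CPM in cycling and 40.5, 44.3 and 46.9 CPM in senescent libraries (-0.13 ± 0.0583, adjusted p = 0.0365). That call did not hold in 6 of 9 other settings, scaling without mitochondrial genes and DESeq2 among them (adjusted p = 0.0693 and 0.0616), nor without the first or the third cycling library or the first or the second senescent DMSO library (adjusted p = 0.0706, 0.0719, 0.247 and 0.0527).

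After 6 h of GNF-7 in senescent cells most host RNAs were higher than with DMSO. SNHG8 rose by 1.58-fold, ZFAS1 by 1.36-fold, GAS5 by 1.33-fold and EPB41L4A-AS1 by 1.24-fold, and SNHG1, SNHG5 and SNHG6 rose by between 1.13-fold and 1.16-fold. SNHG12 alone fell. Over all genes tested 17.9% were called higher and 21.4% lower, against 7 and 1 of the 10 hosts, and the libraries did not overlap in 47.7% of all genes and in 9 of the hosts. The median log2 fold change was 0.20 over the hosts and 0.01 over all genes. The summed level of the hosts was 930 ± 7.96 CPM after GNF-7, against 768 ± 21.6 CPM with DMSO. GAS5 alone gave 285 and 214 CPM of these sums. The senescent DMSO libraries at 6 h used here are the ones used for senescence above.

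In the C/D box group GAS5 was at 203, 223 and 215 CPM with DMSO and 276, 289 and 288 CPM with GNF-7 (0.41 ± 0.0368, adjusted p = 9.35e-15). ZFAS1 was at 63.6, 66.2 and 58.8 CPM with DMSO and 85.0, 89.9 and 82.5 CPM with GNF-7 (0.45 ± 0.0464, adjusted p = 2.32e-12). For both hosts all treated libraries lay well above all vehicle libraries. SNHG1 went from 71.5, 78.7 and 77.2 CPM to 86.8, 89.9 and 86.6 CPM (0.21 ± 0.0459, adjusted p = 0.000128), SNHG5 from 106, 109 and 116 CPM to 131, 122 and 125 CPM (0.19 ± 0.0410, adjusted p = 8.43e-05). In SNHG6 the change was from 65.7, 67.4 and 67.6 CPM to 74.8, 75.2 and 76.0 CPM (0.17 ± 0.0449, adjusted p = 0.00132). These 3 hosts moved by less than GAS5, but without overlap. SNHG16 was at 100, 101 and 100 CPM after GNF-7, just above the vehicle range of 92.8 to 98.1 CPM, and did not pass the test (0.07, 95% interval -0.01 to 0.16); it was called only with the 5 CPM filter (0.13, adjusted p = 0.00603).

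In the H/ACA group SNHG8 had the largest change of the 10 hosts at this time, from 48.6, 54.8 and 51.0 CPM to 82.4, 77.4 and 84.3 CPM (0.66 ± 0.0503, adjusted p = 1.83e-17). The gap between its groups exceeded the range within either. EPB41L4A-AS1 went from 20.8, 19.4 and 22.8 CPM to 25.9, 25.0 and 27.1 CPM (0.31 ± 0.0727, adjusted p = 0.000352). SNHG15 was at 23.4, 24.3 and 26.1 CPM, overlapping the 25.3, 28.3 and 25.8 CPM of the vehicle (-0.10, 95% interval -0.24 to 0.03). SNHG12 fell from 40.5, 44.3 and 46.9 CPM to 34.6, 40.1 and 37.9 CPM (-0.23 ± 0.0591, adjusted p = 0.00127), and its highest treated library was just below its lowest vehicle one.

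**Figure D2:**
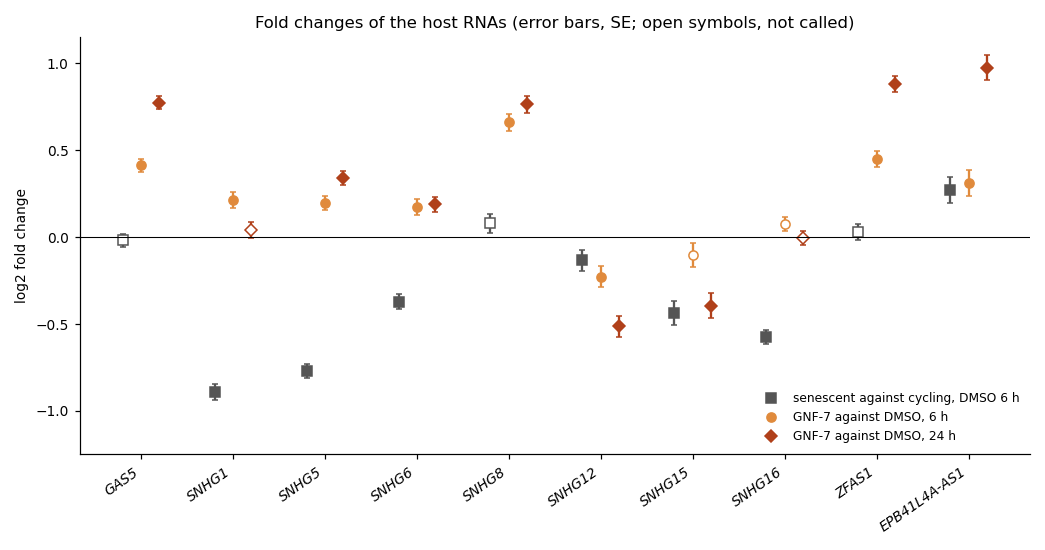
log2 fold change (vertical axis) of each host RNA (horizontal axis) in senescence and after GNF-7 for 6 h and 24 h, with the standard error as bars; filled symbols passed the test at an adjusted p under 0.05 and open symbols did not. EPB41L4A-AS1, ZFAS1, GAS5 and SNHG8 stand between 0.76 and 0.97 at 24 h, and SNHG12 and SNHG15 lie below 0 at that time.

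At 24 h the hosts stood further apart from each other. EPB41L4A-AS1 rose by 1.97-fold, ZFAS1 by 1.84-fold, GAS5 by 1.71-fold and SNHG8 by 1.70-fold over DMSO at 24 h, SNHG5 and SNHG6 rose by less, SNHG12 and SNHG15 fell, and SNHG1 and SNHG16 did not pass the test. Of all genes tested 29.3% were called higher and 29.7% lower, against 6 and 2 of the 10 hosts, and the groups did not overlap in 63.2% of all genes and in 8 hosts. No estimate in the fit with TMM scaling reached 2-fold for a host, but that of EPB41L4A-AS1 at 24 h did on total counts and with the 5 CPM filter (log2 fold change up to 1.08). The hosts' median log2 fold change was 0.26 and that of all genes 0.04. The hosts' summed level was 1098 ± 17.3 CPM against 802 ± 15.7 CPM, and GAS5 alone gave 375 and 219 CPM of these sums.

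GAS5 was at 227, 217 and 214 CPM with DMSO for 24 h and at 380, 371 and 373 CPM with GNF-7 (0.77 ± 0.0368, adjusted p = 1.50e-27). ZFAS1 was at 69.4, 70.0 and 68.9 CPM with DMSO and 133, 125 and 127 CPM with GNF-7 (0.88 ± 0.0455, adjusted p = 8.56e-26). The treated libraries of both exceeded every other library of the study. SNHG5 went from 129, 129 and 122 CPM to 166, 157 and 159 CPM (0.34 ± 0.0405, adjusted p = 6.68e-11), still below its cycling range of 186 to 191 CPM. SNHG6 went from 75.1, 72.4 and 73.9 CPM to 86.6, 82.6 and 83.2 CPM (0.19 ± 0.0445, adjusted p = 0.000209), values that overlap its cycling libraries at 83.8 to 90.8 CPM. SNHG1 was at 75.1, 75.5 and 73.4 CPM with DMSO and 77.0, 80.0 and 73.2 CPM with GNF-7, which overlap (0.04, 95% interval -0.05 to 0.13). With the 5 CPM filter, which raised the median of the same genes by 0.10, SNHG1 was at 0.14 and called (adjusted p = 0.00646). SNHG16 was at 99.4, 97.7 and 94.8 CPM with DMSO and 101, 93.9 and 96.3 CPM with GNF-7. Its groups overlapped and its log2 fold change was -0.01 with a 95% interval of -0.09 to 0.08, a sign that turned on total counts and with the 5 CPM filter (0.023 and 0.096, the latter called with adjusted p = 0.0285) and without the second GNF-7 library at 6 h, the first DMSO library at 24 h or the second GNF-7 library at 24 h (up to 0.0161).

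SNHG8 went from 51.7, 56.7 and 53.9 CPM to 89.8, 94.5 and 91.0 CPM (0.76 ± 0.0501, adjusted p = 6.97e-21). EPB41L4A-AS1 went from 18.6, 18.3 and 18.1 CPM to 37.4, 35.4 and 35.4 CPM (0.97 ± 0.0726, adjusted p = 1.75e-18), the largest change of the 10 hosts in any comparison with GNF-7. For these H/ACA hosts the lowest treated library stood far above the highest vehicle library. SNHG15 fell from 24.9, 23.7 and 22.0 CPM to 18.0, 17.6 and 18.2 CPM (-0.39 ± 0.0722, adjusted p = 3.46e-06). SNHG12 fell from 45.6, 44.8 and 43.1 CPM to 29.6, 32.6 and 31.4 CPM (-0.51 ± 0.0603, adjusted p = 4.69e-11). In both, the GNF-7 libraries at 24 h were the lowest of all 15. Of the 3 hosts with at least 5 pyrimidines from the annotated start onward, ZFAS1 and SNHG5 rose and SNHG12 fell. A link between start sequence and response was not tested.

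The difference between the 2 response times was tested as an interaction, the log2 fold change at 24 h minus that at 6 h. EPB41L4A-AS1 (0.66 ± 0.103, adjusted p = 3.62e-07), ZFAS1 (0.43 ± 0.0649, adjusted p = 1.55e-07) and GAS5 (0.36 ± 0.0519, adjusted p = 6.37e-08) had risen further by 24 h. SNHG12 had fallen further (-0.28 ± 0.0844, adjusted p = 0.00630). SNHG15 also had a lower response at 24 h (-0.29 ± 0.0998, adjusted p = 0.0204), but not when the first senescent DMSO library at 6 h, the third GNF-7 library at 6 h or the first DMSO library at 24 h was left out (adjusted p = 0.0589, 0.0771 and 0.0775). For SNHG1 the response was smaller at 24 h (-0.17 ± 0.0653, adjusted p = 0.0366), a call lost in 3 of 9 other settings and without the first DMSO library or the second GNF-7 library at 6 h, the first or the second DMSO library at 24 h or the third GNF-7 library at 24 h (adjusted p up to 0.141). The larger response of SNHG5 (0.15 ± 0.0576, adjusted p = 0.0459) was lost in 6 of those 9 settings and in 11 of 15 fits that each left out 1 library (adjusted p up to 0.203), and held only without the first DMSO or GNF-7 library at 6 h or the second DMSO or GNF-7 library at 24 h. SNHG8 had almost its full change at 6 h (interaction 0.10, 95% interval -0.04 to 0.24), and SNHG6 (0.02, -0.11 to 0.14) and SNHG16 (-0.08, -0.19 to 0.04) did not pass either. Over all genes tested 12.8% had a higher and 18.0% a lower response at 24 h, against 4 and 3 of the hosts, but the hosts with a lower one came to 1 without the first senescent DMSO library at 6 h or the first DMSO library at 24 h.

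Between the vehicle groups themselves the log2 fold changes of the hosts ran from -0.19 to 0.20. For SNHG5 and SNHG6 they were close in size to those with GNF-7 at 6 h (0.19 and 0.17). In both, the libraries with DMSO for 24 h overlapped those with GNF-7 for 6 h. SNHG5 was higher at 24 h than at 6 h of DMSO (0.20 ± 0.0411, adjusted p = 0.000200), as were SNHG6 (0.14 ± 0.0451, adjusted p = 0.0183) and ZFAS1 (0.14 ± 0.0472, adjusted p = 0.0249). The call of SNHG6 was lost without the first DMSO library at 6 h or the first or the third at 24 h (adjusted p up to 0.0821), and that of ZFAS1 without the third DMSO library at 6 h or any 1 of the 3 at 24 h (adjusted p up to 0.231). EPB41L4A-AS1 was called lower at 24 h without the second DMSO library at 6 h (-0.24, adjusted p = 0.0375). Over all genes 9.26% were called higher and 9.29% lower, and 32.9% did not overlap, against 3, 0 and 5 of the hosts. On total counts none of the 10 was called higher and SNHG1, SNHG15 and EPB41L4A-AS1 were called lower. The vehicle groups differ in collection time alone as far as the labels say.

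Ordered by level, the 5 groups gave different rankings for different hosts. GAS5, SNHG8 and ZFAS1 ran from cycling and senescent DMSO cells, whose neighbouring ranges overlapped in part, up to GNF-7 at 6 h and then at 24 h, with no overlap at those last steps. EPB41L4A-AS1 followed the same order at its upper end. SNHG1, SNHG5, SNHG15, SNHG16 and SNHG12 had their highest level in cycling cells, with no library of another group in that range, and SNHG6 had its highest mean there with overlap only by GNF-7 at 24 h. Over the 15 libraries the genes whose log2 CPM most resembled the mean standardised pattern of the 10 hosts, among 11223 genes searched, were RSL24D1, a factor of large ribosomal subunit assembly (Pearson r = 0.975), EIF4EBP1, which encodes a repressor of cap-dependent initiation (0.971), CEP57 (0.969), BUD31, a spliceosome component (0.968), and MLST8, a subunit of the mTOR complexes (0.965). The libraries fall into 5 groups and share their scaling, so these values describe likeness of group levels only.

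Several hosts lie beside or across from coding genes, whose own levels are given here, with distances from the GENCODE models. SNHG1 starts 188 bases from SLC3A2 on the other strand. SLC3A2, which encodes the heavy chain of amino acid transporters, rose with GNF-7 from 129 ± 2.82 to 367 ± 8.94 CPM at 6 h (1.51 ± 0.0385, adjusted p = 4.05e-41) and from 105 ± 3.27 to 304 ± 12.3 CPM at 24 h (1.54 ± 0.0391, adjusted p = 1.50e-41). SNHG1 beside it had log2 fold changes of 0.21 and 0.04. In senescence both fell, SLC3A2 by 0.52 on the log2 scale (adjusted p = 6.14e-19). From the outermost GENCODE start, at base 49278178, ZFAS1 begins 248 bases inside its opposite-strand neighbour ZNFX1, which encodes an RNA helicase of antiviral defence. The ZFAS1 start shown in the window above, that of ZFAS1-201 at base 49278642, lies beyond this overlap. In senescence ZNFX1 rose from 111 ± 3.18 to 212 ± 7.05 CPM (0.93 ± 0.0391, adjusted p = 1.02e-30), where ZFAS1 had a log2 fold change of 0.03. It moved against ZFAS1 under GNF-7, from 212 ± 7.05 to 163 ± 5.87 CPM at 6 h (-0.38 ± 0.0382, adjusted p = 6.78e-13) and from 194 ± 2.58 to 134 ± 2.29 CPM at 24 h (-0.53 ± 0.0387, adjusted p = 5.50e-19). ZBTB37, a zinc finger gene across from GAS5 with a mean of 11.1 CPM, did not pass the test at 6 h or 24 h (-0.05 and -0.17), and neither did TRNAU1AP across from SNHG12 (0.09 and -0.21). An unnamed antisense gene 83 bases from the start of SNHG16 had a mean of 1.00 CPM and was called higher in senescence (1.59 ± 0.468, adjusted p = 0.00217) and with GNF-7 at 6 h (1.26 ± 0.344, adjusted p = 0.00225) and 24 h (0.99 ± 0.326, adjusted p = 0.00714). The libraries came from a stranded kit, but whether reads were counted by strand is not given in the sources used here, so values of overlapping genes are uncertain.

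**Figure D3:**
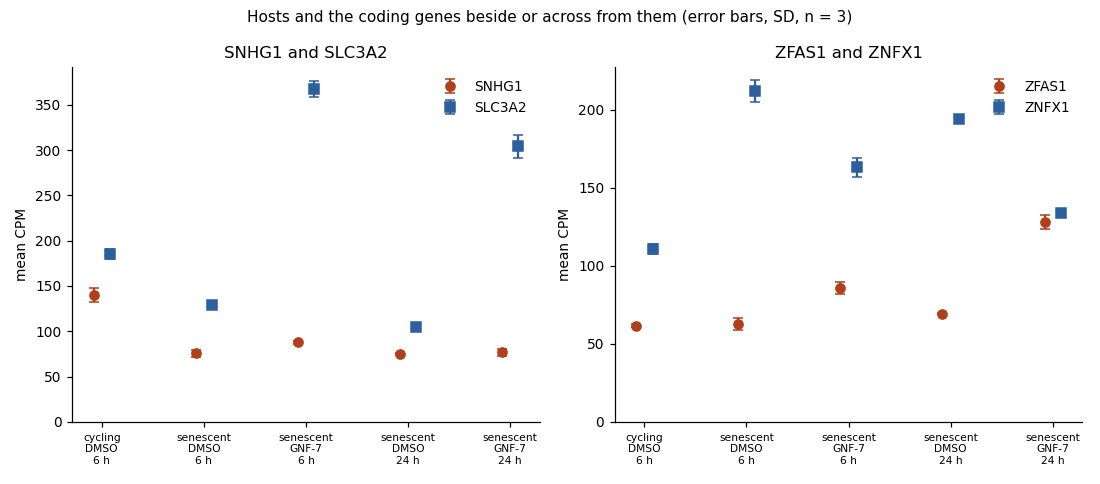
Mean CPM (vertical axis from 0, SD bars, n = 3) of SNHG1 with SLC3A2 and of ZFAS1 with ZNFX1 in the 5 groups (horizontal axis). SLC3A2 is near 367 and 304 CPM in the GNF-7 groups, against 129 and 105 CPM with DMSO, while SNHG1 stays under 90 CPM in all senescent groups. After 24 h of GNF-7 ZNFX1 is lower and ZFAS1 is higher than with DMSO. CPM is not scaled to gene length, so levels are not compared between genes.

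The libraries came from a kit for poly(A) RNA, a tail that snoRNAs lack, and the snoRNAs themselves were barely covered. Of 34 snoRNA symbols in the 10 hosts, 24 had a row in the table, as 30 rows, of which 23 had no count in any library. Rows were matched by symbol, and SNORD81 among others had more than 1. Whether each row lies within its host was not checked. Only SNORD99, in SNHG12, passed the filter on low counts. It had 42, 43 and 49 counts in cycling libraries, 26, 42 and 33 with DMSO and 16, 25 and 16 with GNF-7 for 6 h, and 48, 32 and 42 with DMSO and 20, 19 and 12 with GNF-7 for 24 h. Its log2 fold changes with GNF-7 were -0.83 ± 0.332 at 6 h (adjusted p = 0.0411) and -1.34 ± 0.330 at 24 h (adjusted p = 0.000387), in the direction of its host, from whose unspliced RNA such reads cannot be told apart. SNORA13, in EPB41L4A-AS1, had at most 14 counts, SNORD12C, in ZFAS1, at most 7 and SNORD1B, in SNHG16, at most 5, and none of the 3 was tested. The other rows had at most 2 counts in any library.

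The 10 hosts were set beside lists of related genes by counts and medians. Of 20 other noncoding snoRNA hosts 19 were tested (MEG8 did not pass the filter), and 5 rose and 10 fell in senescence, 7 rose and 0 fell with GNF-7 at 6 h, and 8 rose and 2 fell at 24 h. At 6 h 1 was called lower without a filter and without the first DMSO or the second GNF-7 library at 6 h, and at 24 h 1 was called lower with the 5 CPM filter. Their medians were -0.31, 0.10 and 0.20. SNHG7 and SNHG32 rose the most with GNF-7, to 133 ± 2.58 CPM from 72.2 ± 1.77 CPM and to 82.6 ± 2.13 CPM from 42.8 ± 1.57 CPM at 24 h (0.88 ± 0.0423, adjusted p = 3.11e-27, and 0.95 ± 0.0519, adjusted p = 1.47e-24). At 6 h they had risen by 0.47 and 0.37. SNHG4, the largest fall among those with a mean of at least 5 CPM at 24 h (-0.36, adjusted p = 9.20e-08), moved like SNHG12 and SNHG15. In senescence DANCR, a host known from the differentiation of stem cells, fell to 35.3 ± 3.12 from 81.7 ± 4.0 CPM (-1.21, adjusted p = 2.76e-28) and SNHG10 fell by 0.49, while SNHG14 (0.90) and SNHG20 (0.40) rose.

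The 38 coding genes that host snoRNAs fell with senescence in 34 cases and rose in 2, with a median of -0.43. With GNF-7 10 rose and 5 fell at 6 h, and 25 rose and 9 fell at 24 h, with medians of 0.01 and 0.12. The 10 that rose at 6 h were 4 without any 1 of the DMSO libraries at 6 h or the first GNF-7 library at 6 h, 3 without the third GNF-7 library at 6 h, 6 without the second or the third cycling library, the first or the third DMSO library at 24 h or the third GNF-7 library at 24 h, and from 2 to 18 over the other settings. HSPA8, a constitutive heat shock chaperone whose introns hold snoRNAs, fell with GNF-7 to 1146 ± 21.5 from 2166 ± 42.5 CPM at 6 h (-0.92, adjusted p = 7.16e-33) and by 1.12 on the log2 scale at 24 h, and GNL3, a nucleolar GTPase, fell by 0.21 and 0.50. NCL (nucleolin) and DKC1 (dyskerin) had the largest falls in senescence (-1.24 and -1.19), and EIF4A1 and PPAN, which share their loci with readthrough transcripts, were the 2 that rose (0.29 and 0.19). None was called higher in senescence without the first cycling or the first senescent DMSO library, 1 was without the second cycling or the third senescent DMSO library, and 4 were with the 5 CPM filter. The 79 cytosolic ribosomal protein genes, which share the TOP class and part of the coding host list, fell in 76 cases with senescence (median -0.44), RPSA and RPLP0 the most (-0.86 and -0.75). After GNF-7 13 rose and 1, RPS26, fell at 6 h (-0.19), with a median of 0.03. By 24 h 61 rose and 2, RPL17 and RPS26, fell (-0.17 and -0.11), with a median of 0.15. RPL12 and RPL37 led the rises at 24 h (0.41 and 0.39) and at 6 h (both 0.15). At 24 h of GNF-7 the largest rise among them was below those of GAS5, ZFAS1, SNHG8 and EPB41L4A-AS1. The count called higher at 6 h ran from 4 to 44 over the other settings and from 4 to 21 with 1 library left out: 4 without the third, 5 without the first and 21 without the second GNF-7 library at 6 h, and 6, 5 and 5 without the first, the second and the third DMSO library at 6 h. Ribosomal protein genes have many processed copies, so their counts are uncertain.

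**Figure D4:**
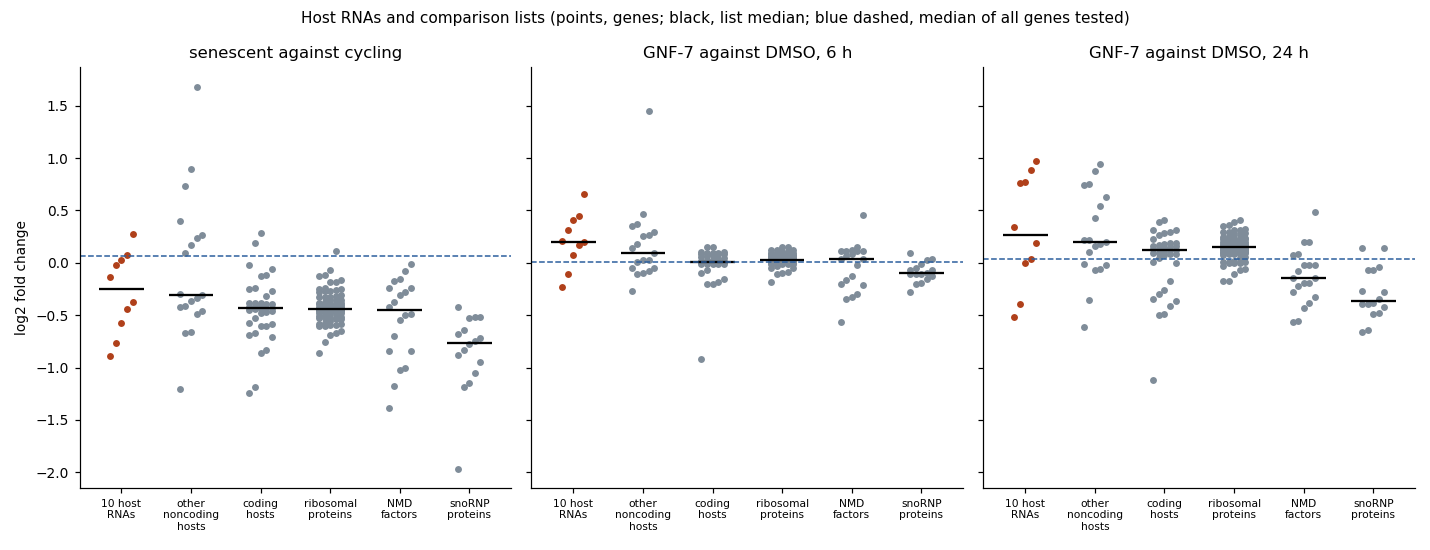
log2 fold change (vertical axis) of the 10 host RNAs and of 5 lists of related genes (horizontal axis) in senescence and after GNF-7 for 6 h and 24 h; points are genes, black lines list medians, and the dashed line is the median of all genes tested. The hosts spread from -0.51 to 0.97 at 24 h, wider than the ribosomal protein genes, and the snoRNP genes lie mostly below 0.

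Of 20 NMD factors, 18 fell and none rose in senescence (median -0.45), with MAGOHB and MAGOH, subunits of the exon junction complex, falling the most (-1.38 and -1.18). After GNF-7 5 rose and 7 fell at 6 h, and 3 rose and 11 fell at 24 h, with medians of 0.04 and -0.15. The 5 that rose at 6 h were 2 without the first or the third DMSO library at 6 h, and with the 5 CPM filter 7 rose and 6 fell at 24 h, which turns the balance. SMG6, the endonuclease of NMD, rose from 77.6 ± 1.94 to 107 ± 3.33 CPM at 6 h (0.46, adjusted p = 4.06e-14) and from 75.6 ± 1.80 to 106 ± 1.31 CPM at 24 h (0.48, adjusted p = 2.33e-15), and UPF3A rose by 0.16 and 0.20. SMG8, a subunit of the SMG1 kinase complex, fell at both times (-0.57 and -0.56), as did the exon junction helicase EIF4A3 (-0.35 and -0.57). The 16 genes of snoRNP proteins and their assembly factors, whose products package the snoRNAs that these introns release, all fell in senescence (median -0.76), FBL, the methyltransferase of C/D box snoRNPs, the most (-1.97). With GNF-7 none rose and 5 fell at 6 h, among them SHQ1 and NOP56 (-0.28 and -0.20), and 11 fell at 24 h (median -0.36), RUVBL2 to 115 ± 0.981 from 180 ± 3.07 CPM and NOP58 to 59.5 ± 5.32 from 92.8 ± 1.23 CPM. The 5 that fell at 6 h were 3 without the first or the third DMSO library and 2 without the second GNF-7 library at 6 h, and 2 or 3 in 3 other settings. At 24 h none was called higher, but 1 was on total counts or without the second DMSO library at 24 h, and 2 were with the 5 CPM filter.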

How the data were processed

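Sequencing libraries of HT-1080 cells were demultiplexed with bcl2fastq 2.20.0.422, with STAR 2.7.9a, featureCounts 1.5.1 and the GRCh38 build also named, per the submitters' processing notes. The annotation release and the strand setting are not given in the sources used here. The authors deposited 1 table of raw counts per Ensembl gene, without normalization. Of 60673 rows, 3 of a broken entry (at most 0.00475% of a library) were left out, and 60400 of 60670 identifiers (99.55%) had a symbol. For the test, edgeR (4.0.16, R 4.3.3) fitted robust quasi-likelihood models to the counts after filterByExpr and TMM scaling, in 1 fit of 15 libraries and 5 groups, from which 5 contrasts were read. A gene was called at a Benjamini-Hochberg adjusted p under 0.05 over the 18563 genes tested, within each contrast. CPM used TMM-scaled library sizes, and the biological coefficient of variation was 4.64%. The 95% intervals of fold changes take the standard error as normal. The code was tested on simulated counts. Alternatives were RLE and total-count scaling, scaling without mitochondrial genes, no filter, a mean of at least 5 CPM, DESeq2 1.42.0, limma voom 3.58.1, a replicate block, only the groups compared and each library left out. Labels do not say that a replicate number marks a shared culture, so p-values measure the spread between these samples.

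Named were the 10 hosts, TERF2, EIF2AK4 and ATF4, from each list the 2 largest called rises and falls with a mean of at least 5 CPM, neighbours of at least 1 CPM over a host or starting within 5 kb of its start on the other strand, and the 5 genes most like the hosts' pattern. Some items that this rule or the sequences would give are not reported here. The cell markers and the snoRNA rows were lists too. Members and lists were chosen with earlier results of these data known. The TATA motif and the reading frames were examined after the data. Gene models are from GENCODE release 29, which held 58452 (96.3%) of the genes. No library pair within a group agreed within sampling noise by a chi-square test, so none was counted as the same sample.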

Additional observations from a re-analysis of the deposited data

Results flagged for a closer look

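Between the 2 response times, 7 hosts differed in their response to GNF-7 by the interaction test (log2 fold change at 24 h minus that at 6 h, 3 libraries a group). EPB41L4A-AS1 differed by 0.66, ZFAS1 by 0.43, GAS5 by 0.36 and SNHG5 by 0.15, all with the higher response at 24 h. SNHG15 differed by -0.29, SNHG12 by -0.28 and SNHG1 by -0.17, with the lower response at 24 h. Over all genes tested 12.8% had a higher and 18.0% a lower response at 24 h by the same test. For EPB41L4A-AS1, ZFAS1, GAS5 and SNHG12 the call held in all 24 alternatives. SNHG5, SNHG1 and SNHG15 lost it in some of them, as given in the report. The share of mitochondrial counts rose with both time and GNF-7, and its part in these differences was not tested beyond the scaling that left those genes out.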

How the results depend on the processing

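The 8 host calls with GNF-7 at 6 h and the 8 at 24 h kept their direction and their side of the threshold in all 9 other settings and in the 15 fits that each left out 1 library. Elsewhere scaling mattered: relative to the standard fit, the median of the same genes moved in senescence by 0.13 on total counts and by 0.15 with the 5 CPM filter, and by -0.11 for the vehicle times on total counts, where 12.5% of calls were higher in place of 49.9%. In senescence 4 of 9 called hosts were higher on total counts and 4 of 9 with the 5 CPM filter. The fit of only the groups compared had 2 of 7, against 1 of 7 in the standard fit. In that fit of only the groups compared, the median of the same genes moved by 0.06. Of all genes called in senescence, 59.4%, 49.4% and 51.1% were higher under these settings, against 50.9%. GAS5 turned to 0.1138, 0.1318 and 0.0401 under these settings, SNHG12 to 0.0166 with the 5 CPM filter, and SNHG16 at 24 h of GNF-7 to 0.0231 on total counts and 0.0956 with the 5 CPM filter. For the vehicle times on total counts 0 hosts were called higher and 3 lower, and GAS5 (-0.0731), SNHG8 (-0.0400), SNHG12 (-0.0899) and SNHG16 (-0.0847) turned, while without a filter 1 host was called, 1 of them higher. All genes called for the vehicle times on total counts were 627 higher and 4392 lower, against 1719 and 1724. The hosts' median was -0.12 on total counts, -0.10 with the 5 CPM filter and -0.19 in the fit of only the groups compared in senescence. Where the construction does not show it, the cause was not tested.

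Leaving out 1 library, the ranges were -0.0525 to 0.0119 for GAS5 and -0.0139 to 0.0707 for ZFAS1 in senescence. For SNHG16 at 24 h the range was -0.0367 to 0.0161, with a positive sign without the second GNF-7 library at 6 h, the first DMSO library at 24 h or the second GNF-7 library at 24 h. In the interaction SNHG6 ran from -0.0062 to 0.0291, hosts called from 4 to 7 and hosts called lower from 1 to 3. Over the vehicle times SNHG12 ran from -0.0321 to 0.0713, SNHG1 from -0.0601 to 0.0081, hosts called from 1 to 4, higher from 1 to 3 and lower from 0 to 1, with 1 called without the first or the third DMSO library at 24 h.

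List counts moved as follows. At 6 h of GNF-7 coding hosts called higher came to 18 with the 5 CPM filter, 6 in the fit of only the groups compared and 2 without a filter, against 10. Ribosomal protein genes came to 44 and 4 (5 CPM filter and no filter), against 13, snoRNP genes called lower to between 2 and 3 in 3 settings, against 5, and NMD factors called higher to 1 without a filter, against 5. At 24 h NMD factors came to 7 higher and 6 lower with the 5 CPM filter, against 3 and 11. With the replicate block the hosts called were 7 in senescence, 8 and 8 with GNF-7, 7 in the interaction and 3 over the vehicle times, as without it. Replicate numbers showed little sign of pairing the libraries, though the check cannot settle whether a number marks a shared culture. The 30 same-number correlations of deviations ran from -0.0369 to 0.0579, none was over 0.1, and 8 of 15 libraries correlated best with their own number. All genes called with GNF-7 at 6 h were 7481 with the block and 7286 without it, and at 24 h 11031 and 10940. The same counts were 13032 and 12999 in senescence, 5921 and 5723 in the interaction and 3711 and 3443 over the vehicle times. The snoRNAs were barely covered, and a kit for poly(A) RNA is not made to capture them. A count of 0 there allows up to 3 counts by counting error alone, and it does not measure their level in the cells.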
